A study of Mus musculus with 4 samples.

Results

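The genes described here encode inhibitors of mitogen-activated protein kinase (MAPK) signaling, and their mRNA was measured in bone marrow derived macrophages (BMMs) treated with dimethyl itaconate (DI), a cell-permeable ester of the macrophage metabolite itaconate, during stimulation with the osteoclast-inducing cytokine RANKL. They are 7 phosphatase genes (Dusp1, Dusp2, Dusp3, Dusp4, Dusp5, Dusp6 and Dusp16) and 3 genes of the Sprouty and Spred family (Spry1, Spry2 and Spred1). They were chosen by name, with earlier results of these data known, and all 10 were found among the 34745 genes of the deposited table. BMMs of wild type C57BL/6 mice, male and 8 weeks old, were deprived of FBS for 12 h before RANKL (100 ng/mL) was given for 24 h. The RANKL+DI group (2 libraries) also received DI, and the RANKL+Veh group (2 libraries) received DMSO. The sample labels give the DI dose as 20 mM and the methods text as 20 μM, a difference that was not resolved. All libraries are thus from RANKL-treated cells, and no library without RANKL was compared. Nothing says that the 2 libraries of a group came from separate mice, so the p-values measure the spread between these libraries, which may be technical.

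MAPK cascades carry signals from RANK and from the M-CSF receptor through ERK, JNK and p38, which are switched on by phosphorylation and drive osteoclast formation from macrophages. Those dual-specificity phosphatases (DUSPs) that act on MAPKs can remove both phosphates of the activation loop and switch the kinases off again. Several of them, though not all, are themselves induced by the kinases they silence. Sprouty and Spred proteins act higher up, at the level of RAS, and form a second feedback loop on ERK. The comparison asks whether the mRNA of these brakes differed with DI after 24 h of RANKL.

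With DI, mRNA of Dusp6 was 1.48-fold and that of Dusp3 1.27-fold the vehicle level, and Spred1 fell to 0.832 of it. Of the 9 genes with enough counts for edgeR's quasi-likelihood test, these 3 passed a threshold of 0.05 on the adjusted p (Benjamini-Hochberg). Over all 12590 tested genes, 14.8% passed this threshold, 7.14% as higher and 7.70% as lower with DI (899 and 969 genes, or 548 and 1932 with scaling by library size only). The other 6 tested genes, Dusp1, Dusp2, Dusp4, Dusp5, Dusp16 and Spry2, did not pass. Spry1 was close to absent. Library totals were between 16085692 and 19403480 counts, and CPM values, the counts relative to library size, use library sizes scaled by TMM.

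**Figure D1:**
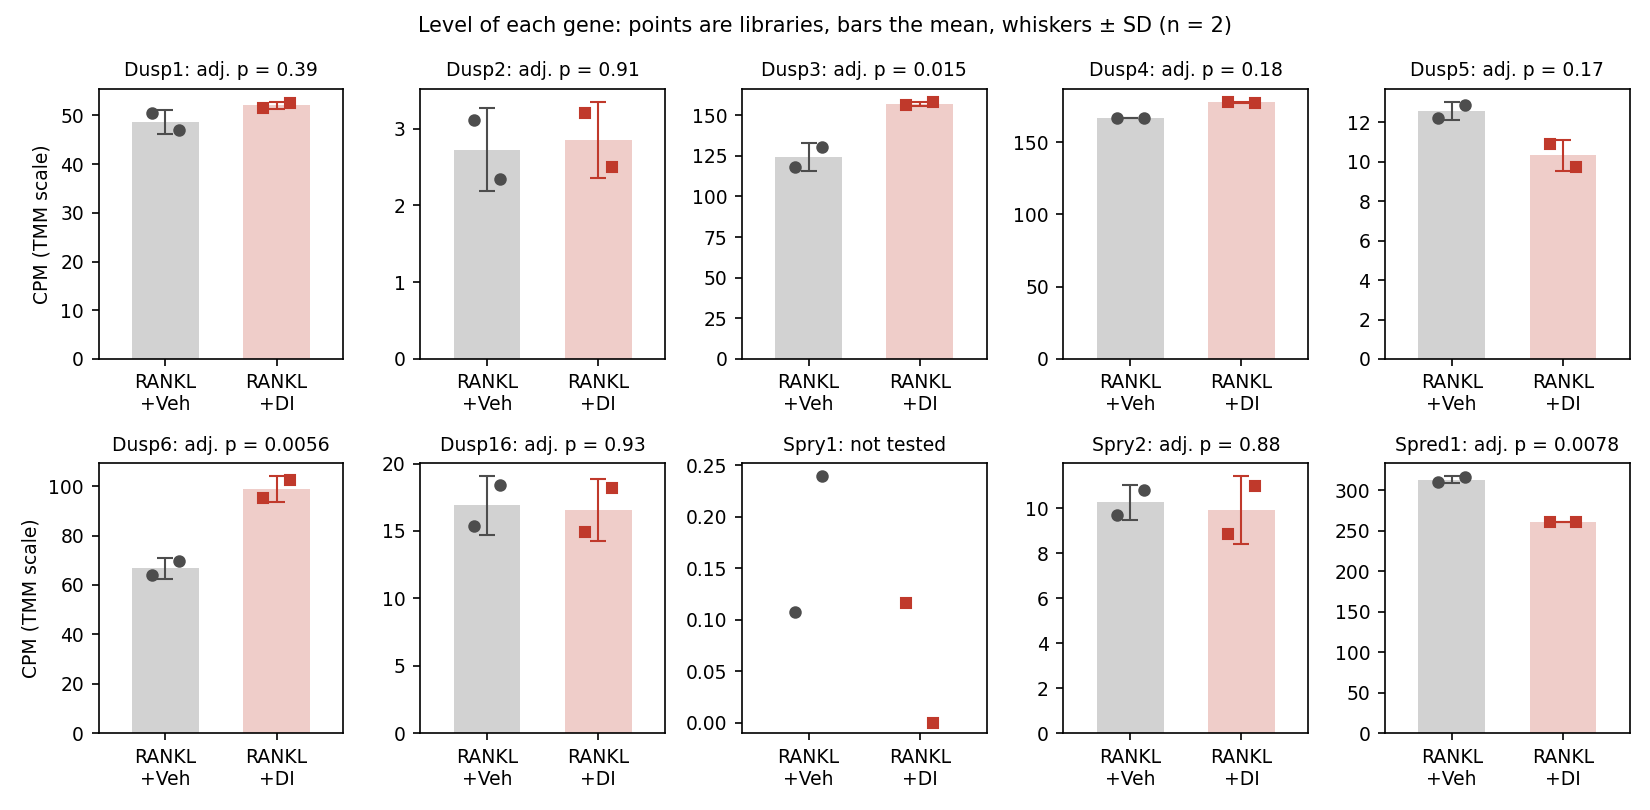
Level of each of the 10 genes in CPM (counts per unit of library size on the TMM scale), 1 panel per gene with its own axis from 0. Points are libraries, bars means and whiskers SD (n = 2 per group), while Spry1, which was not tested, is shown by its points alone. The DI libraries lie above the vehicle libraries for Dusp6 (95.02 and 102.5 against 63.8 and 69.8 CPM) and below them for Spred1.

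The sequence upstream of the transcription start is shown for the 3 genes that changed. RefSeq promoters on GRCm38.p6 matched 9 of the 10 genes by symbol, and the 250 bases before the start were searched on both strands for 5 motifs of MAPK-regulated and electrophile-regulated genes. These were the AP-1 site (TGANTCA), the cAMP response element (TGACGTCA), the ETS site (CCGGAAG), the core of the antioxidant response element (TGACNNNGC) and the CArG box. The windows of Dusp6 (chr10:99262981-99263230, plus strand), Dusp3 (chr11:101984800-101985041, minus strand) and Spred1 (chr2:117120821-117121070, plus strand) held no match to any of them. They are given 5′ to 3′ on the gene's strand, in lower case because no base belongs to a match. Each motif was found in at most 10.2% of all windows, so an absence is common and does not tell these genes apart. Sites outside the 250 bases were not searched. The Spred1 window ends upstream of the gene start as deposited (117121374). The Dusp3 stretch leaves out the 8 exonic bases next to the start, and since the gene also has a transcript that starts further upstream, it lies inside the gene as deposited.

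Dusp6: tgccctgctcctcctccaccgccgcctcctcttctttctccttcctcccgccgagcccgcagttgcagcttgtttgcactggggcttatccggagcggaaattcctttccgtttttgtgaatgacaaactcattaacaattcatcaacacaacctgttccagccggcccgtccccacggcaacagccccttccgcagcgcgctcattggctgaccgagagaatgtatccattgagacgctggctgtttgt
Dusp3: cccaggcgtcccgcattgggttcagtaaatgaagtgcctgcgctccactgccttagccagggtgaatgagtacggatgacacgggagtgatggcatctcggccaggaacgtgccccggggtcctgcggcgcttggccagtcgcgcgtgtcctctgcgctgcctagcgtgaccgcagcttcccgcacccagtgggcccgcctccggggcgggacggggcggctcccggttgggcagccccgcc
Spred1: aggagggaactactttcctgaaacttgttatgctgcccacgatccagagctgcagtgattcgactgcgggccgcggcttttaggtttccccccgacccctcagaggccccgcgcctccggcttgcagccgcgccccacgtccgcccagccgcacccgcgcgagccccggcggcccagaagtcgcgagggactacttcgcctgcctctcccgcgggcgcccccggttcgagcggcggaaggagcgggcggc

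Matches were present in 2 genes whose mRNA did not pass the test, Dusp1 and Dusp5, with capitals marking the matched bases below. Dusp2, Dusp16 and Spry2, which did not pass either, and the untested Spry1 held no match. Dusp4 had no promoter entry and was not searched. Matches thus did not separate the genes that passed from those that did not. The Dusp1 stretch (chr17:26508520-26508722, minus strand, 250 to 48 bases before the start) held a cAMP response element and, 2 bases on, a core antioxidant response element in reverse. The Dusp5 stretch (chr19:53529029-53529087, plus strand, 116 to 58 bases before the start) held a core antioxidant response element in reverse. Further on it held a pair of abutting CArG boxes, the binding motif of serum response factor. The whole Dusp5 window lies in annotated exons, counting genes on both strands, so only the part around the matches is given. No match overlapped another. Among all 32851 windows of the same length, 1.55% held the cAMP response element, 10.2% the antioxidant core, 1.47% a CArG box, 6.75% the AP-1 site and 6.91% the ETS site. A match is a string of letters and no evidence of binding.

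Dusp1: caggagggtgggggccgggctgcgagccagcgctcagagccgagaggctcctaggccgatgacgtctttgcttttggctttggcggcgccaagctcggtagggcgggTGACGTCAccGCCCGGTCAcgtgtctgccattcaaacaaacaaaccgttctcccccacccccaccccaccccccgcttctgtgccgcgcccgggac
Dusp5: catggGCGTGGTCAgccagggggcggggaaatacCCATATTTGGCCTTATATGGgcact

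Dusp6 encodes a cytoplasmic phosphatase that acts on ERK with high selectivity and is a standard readout of ERK feedback. The gene lies on chromosome 10 from 99263231 to 99267488 (ENSMUSG00000019960). The DI libraries held 1631 and 1922 of its counts and the vehicle libraries 1189 and 1162. This corresponds to 98.8 ± 5.29 CPM against 66.8 ± 4.20 CPM (SD, n = 2 each). The lower DI library stood well above the higher vehicle library. The log2 fold change was 0.56 (standard error, SE, 0.070, edgeR adjusted p = 0.00559), with a 95% interval of 0.39 to 0.74 on the log2 scale. No annotated exon of another gene overlaps Dusp6.

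Dusp3 encodes a small atypical phosphatase that lacks the kinase-docking domain of the other DUSPs described here and acts on ERK and JNK. It lies on chromosome 11 from 101971143 to 101987013 (ENSMUSG00000003518). The DI libraries held 156.2 and 157.8 CPM, and the vehicle libraries 118.0 and 130.2 CPM. The groups did not overlap, and the vehicle libraries differed from each other more than the DI libraries did. The log2 fold change was 0.34 (SE 0.058, edgeR adjusted p = 0.0149), with a 95% interval of 0.20 to 0.48. Gm20659 overlaps 12.9% of its exonic bases on the opposite strand but had at most 2 counts in any library.

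Spred1 encodes a membrane-associated protein that binds neurofibromin and dampens RAS signaling. It had the most counts of the 10 genes, between 4474 and 5777 per library, and lies on chromosome 2 from 117121374 to 117182279 (ENSMUSG00000027351). Its level was 260.7 and 260.3 CPM with DI and 310.1 and 316.2 CPM with vehicle. The DI libraries were nearly equal and both lay below the vehicle libraries. The log2 fold change was -0.27 (SE 0.037, edgeR adjusted p = 0.00779), with a 95% interval of -0.36 to -0.18. Spred1 was thus lower in the libraries in which Dusp6 was higher.

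The relation between these genes does not depend on how libraries are scaled when it is taken within each library. There were 0.365 and 0.394 counts of Dusp6 for each count of Spred1 with DI, against 0.206 and 0.221 with vehicle, a ratio 1.78 times as high with DI. Relative to Dusp4, the ratio of Dusp6 counts was 0.534 and 0.578 with DI and 0.383 and 0.419 with vehicle. The ratio of Spred1 to Dusp4 counts was 1.47 in both DI libraries and 1.86 and 1.90 with vehicle. For all 3 ratios the DI libraries lay on one side of the vehicle libraries, and they are given without a test. They use the same counts as the calls above, so this separation is no further support for those calls.

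**Figure D2:**
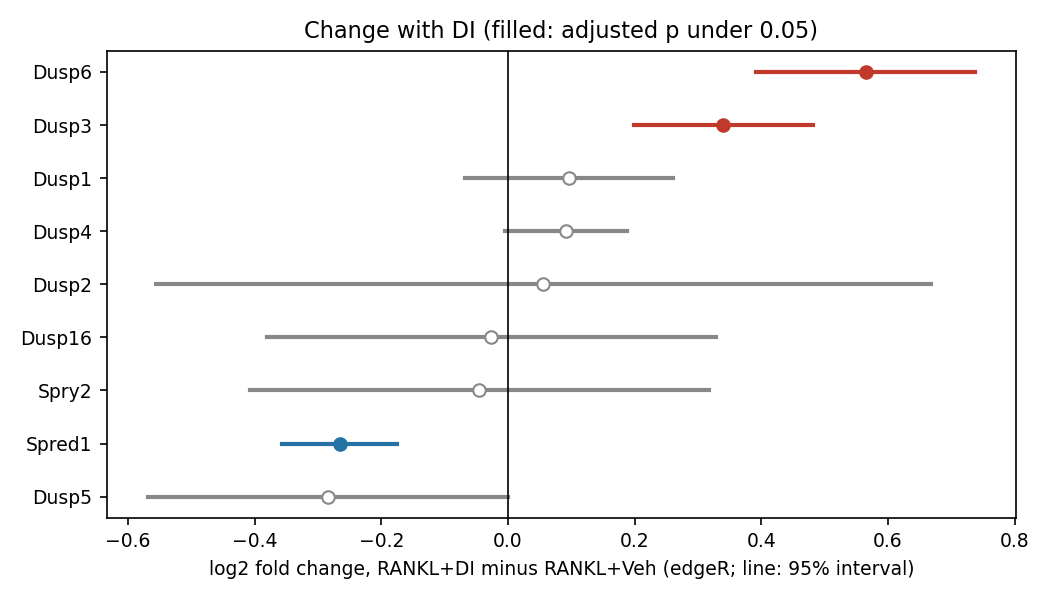
Log2 fold change of RANKL+DI against RANKL+Veh for the 9 tested genes, with the 95% interval from edgeR as a line (n = 2 libraries per group). Filled points passed an adjusted p under 0.05, with Dusp6 at 0.56 and Dusp3 at 0.34 above 0 and Spred1 at -0.27 below it, and the intervals of Dusp2, Dusp16 and Spry2 reach furthest to both sides of 0.

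The nuclear phosphatases Dusp1, Dusp2, Dusp4 and Dusp5 are immediate-early genes of MAPK signaling, and none of them passed the test. Dusp4, which acts on ERK and JNK, had 177.8 and 177.4 CPM with DI and 166.7 and 166.6 CPM with vehicle. These groups were separate but only slightly, at a log2 fold change of 0.09 (SE 0.039, edgeR adjusted p = 0.183) and a 95% interval of -0.0043 to 0.19. Its difference was -0.012 when libraries were scaled by their size only. The gene lies on chromosome 8 from 34807297 to 34819894 (ENSMUSG00000031530).

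Dusp1, which prefers p38 and JNK and limits inflammatory cytokine output of macrophages, had 51.6 and 52.6 CPM with DI and 50.4 and 46.9 CPM with vehicle. Its log2 fold change was 0.10 (SE 0.067, edgeR adjusted p = 0.394). The 95% interval ran from -0.07 to 0.26, which corresponds to folds of 0.954 to 1.20. Scaled by library size only, its difference was -0.0065. Dusp1 lies on chromosome 17 from 26505590 to 26508519 (ENSMUSG00000024190).

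Dusp5, a nuclear phosphatase specific to ERK, had 10.9 and 9.76 CPM with DI and 12.2 and 12.9 CPM with vehicle. The DI libraries were the lower ones, at a log2 fold change of -0.28 (SE 0.12, edgeR adjusted p = 0.166) and a 95% interval from -0.57 to -0.00036. Its p before adjustment was 0.0498 (edgeR's quasi-likelihood test). The estimate was as large as that of Spred1, on 183 to 228 counts per library in place of 4474 to 5777. Over 22.1% of its exonic bases Dusp5 overlaps AC137853.2 on the opposite strand, and whether reads were counted by strand is not stated. It lies on chromosome 19 from 53529109 to 53542431 (ENSMUSG00000034765).

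Dusp2, a nuclear phosphatase first known from activated lymphocytes, had between 39 and 58 counts per library. Its levels were 3.20 and 2.51 CPM with DI and 3.11 and 2.34 CPM with vehicle, so the groups overlapped. The 95% interval of the log2 fold change, -0.56 to 0.67, still holds changes of up to 1.59-fold upward and down to 0.68 of the vehicle level. Differences within these bounds are not excluded by the interval (adjusted p = 0.913, edgeR). Dusp2 lies on chromosome 2 from 127336159 to 127338376 (ENSMUSG00000027368).

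Dusp16, a phosphatase of JNK and p38, had 14.9 and 18.2 CPM with DI and 15.4 and 18.4 CPM with vehicle. The libraries of each group differed more from each other than the group means of 16.6 and 16.9 CPM did. The 95% interval of its log2 fold change was -0.38 to 0.33 (adjusted p = 0.931, edgeR). Dusp16 lies on chromosome 6 from 134715468 to 134792625 (ENSMUSG00000030203).

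Spry2 encodes a Sprouty protein that limits ERK activation downstream of growth factor receptors. It had 8.86 and 10.99 CPM with DI and 9.72 and 10.8 CPM with vehicle, with overlapping groups. The 95% interval was -0.41 to 0.32 on the log2 scale (adjusted p = 0.878, edgeR). Spry1, a close relative of Spry2, was seen with 2 and 0 counts in the DI libraries and with 2 and 4 in the vehicle libraries. A count of 0 allows for up to 3 counts (0.16 to 0.18 CPM per library), and both groups were on average at or under it, and no fold change is given. Over 24.4% of its exonic bases Spry1 overlaps Gm42922, which had 0 counts. Spry2 lies on chromosome 14 from 105891949 to 105896819 (ENSMUSG00000022114) and Spry1 on chromosome 3 from 37639947 to 37644598 (ENSMUSG00000037211).

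The 2 groups did not overlap in CPM for 6 of the 9 tested genes, where 58.6% of all tested genes did not overlap. The count of 6 is thus near the background. The median log2 fold change of the 9 genes was 0.06, beside 0.0012 for all tested genes.

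Levels can be compared between genes on the FPKM scale, which corrects for gene length. With vehicle, Dusp4 stood highest at 63.0 ± 0.0482 FPKM, followed by Spred1 at 45.9 ± 0.612, Dusp6 at 24.7 ± 1.54, Dusp3 at 22.7 ± 1.57 and Dusp1 at 9.81 ± 0.497 FPKM (SD, n = 2 each). Dusp5 and Spry2 followed at 5.27 ± 0.196 and 5.10 ± 0.381 FPKM, and Dusp16 and Dusp2 at 1.35 ± 0.173 and 1.19 ± 0.239 FPKM. In this order, Dusp6 and Dusp3, Dusp5 and Spry2, and Dusp16 and Dusp2 overlapped in their ranges over the vehicle libraries, while the other neighbours did not. FPKM depends on the gene model behind it, and the values imply lengths of 12979 bases for Dusp16 and 5142 bases for Dusp1, against 7798 and 3311 exonic bases in GENCODE M21. For Dusp6 and Spred1 they imply 2796 and 7062 bases, against 3132 and 6784 exonic bases. How close these genes stand to each other in FPKM thus depends on the gene model.

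With DI Dusp4, Spred1, Dusp6, Dusp3 and Dusp1 kept this order, but the distances changed. Dusp6 came up to 32.7 and 35.4 FPKM and Spred1 came down to 35.5 and 35.6 FPKM, so that their levels were close, where Spred1 had been at 45.5 and 46.4 against 23.7 and 25.8 FPKM. Dusp6 and Dusp3 no longer overlapped, with Dusp3 at 26.6 and 27.0 FPKM. Of the summed FPKM of the 7 phosphatase genes, Dusp6 made up 23.7% and 25.1% with DI and 18.7% and 19.9% with vehicle. Dusp4 made up 45.2% and 44.4% with DI and 49.95% and 48.4% with vehicle. That sum was 138.0 and 141.0 FPKM with DI and 126.2 and 130.0 FPKM with vehicle, while the sum of Spry1, Spry2 and Spred1 was 39.6 and 40.7 against 50.4 and 51.8 FPKM. Spred1 alone made up between 87.5% and 90.3% of the latter sum in every library. FPKM values are not TMM-scaled, and the sums and shares are given without a test.

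**Figure D3:**
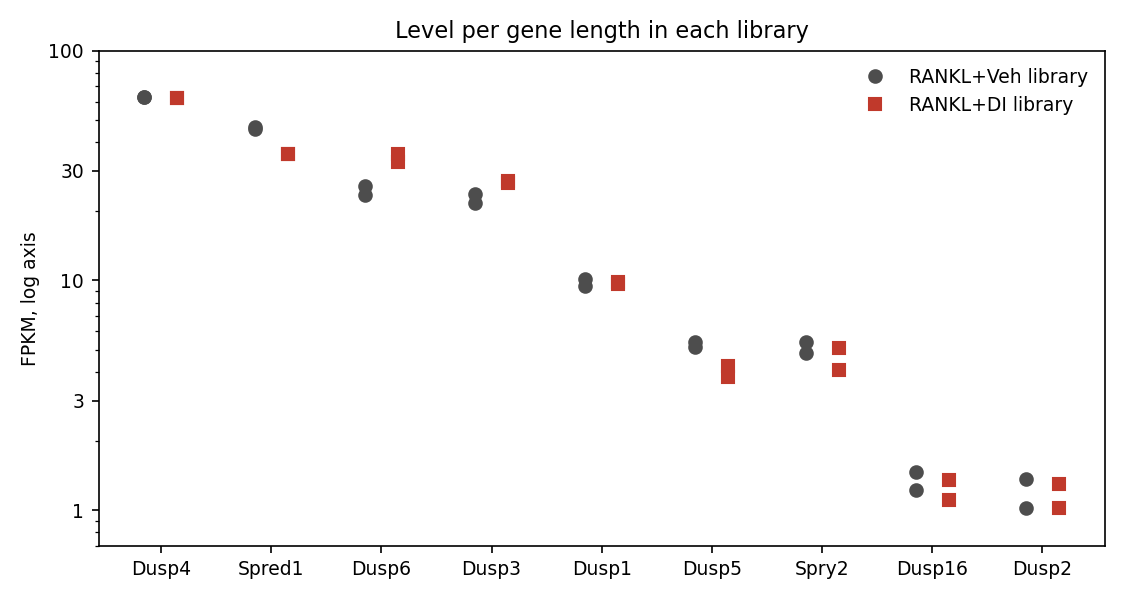
FPKM of 9 genes in each library on a log axis, ordered by the mean of the vehicle libraries. Circles are RANKL+Veh and squares RANKL+DI (2 libraries each), and Spry1, with at most 0.0747 FPKM, is left out. Dusp6 and Spred1 are far apart with vehicle (24.7 and 45.9 FPKM on average) and close with DI (34.1 and 35.6 FPKM).

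Of the other dual-specificity phosphatases, 11 of 17 had enough counts, and 2 were called, both lower with DI. These were 18.2% of the 11, against 14.8% of all tested genes. Dusp9, whose product silences ERK and is best known from placenta and metabolic tissue, fell from 9.91 ± 0.259 to 5.19 ± 0.582 CPM (SD, n = 2 each). Its log2 fold change was -0.93 (SE 0.14, edgeR adjusted p = 0.0100). This was further from 0 than the log2 fold change of any of the 9 tested genes above. Without vehicle replicate 1 its log2 fold change was -0.90, its adjusted p was 0.0526 (edgeR), and none of the 11 genes was called. Dusp11, which works on RNA rather than on kinases, stood at -0.17 (adjusted p = 0.0467, edgeR), and this call was lost with each library left out, without a filter on low counts, by DESeq2, by edgeR's exact test and with the replicate block. Under 4 of the alternatives (no filter, edgeR's exact test, the replicate block and without DI replicate 2) the list held 1 higher and 1 lower call in place of 2 lower ones. Dusp18, named after its values were seen, stood at 0.63 with an adjusted p of 0.0530 (edgeR). The median of the 11 genes was 0.12. Among the other Sprouty and Spred genes 3 of 4 were tested and none was called by edgeR, DESeq2 or limma-voom, and 0 had an unadjusted p under 0.05. Spred2 had a log2 fold change of 0.09 (95% interval -0.06 to 0.24) and Spred3 of 0.0017 (-0.55 to 0.55).

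The kinases that these brakes act on were described from lists of the ERK and of the JNK and p38 cascades. Of 19 tested genes between RAS and the kinases downstream of ERK, 4 rose with DI, none fell, and the median log2 fold change was 0.14. The called share was 21.1%, against 14.8% of all tested genes. With scaling by library size only, 3 were called higher and 1 lower. Rps6ka3, which encodes an ERK-activated ribosomal S6 kinase, rose from 101.9 ± 2.21 to 209.4 ± 15.6 CPM (SD, n = 2 each). The log2 difference was 1.04 (SE 0.062, edgeR adjusted p = 6.47e-04). The adaptor Shc1 stood at 0.31 and Mapk3, an ERK gene, at 0.30 (adjusted p = 0.0247 and 0.0173, edgeR). Both calls were sensitive to single libraries. Shc1 lost its call without vehicle replicate 1, where its log2 fold change was 0.25, without either DI library, and when libraries were scaled by size only. Mapk3 lost it without either vehicle library. Part of the Shc1 transcript (28.3%) also has a copy elsewhere at 98.5% identity.

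None of the 20 tested genes of the JNK and p38 cascades passed edgeR's quasi-likelihood test after adjustment, and their median was 0.06. Over all tested genes 14.8% passed. At an unadjusted p under 0.05 there were 2, and DESeq2 called 0 and limma-voom 1. Spag9, a JNK scaffold, had 311.0 ± 4.15 CPM with DI and 298.9 ± 16.2 CPM with vehicle, and Mapkapk2, a kinase activated by p38, 256.9 ± 4.55 and 246.9 ± 7.27 CPM (SD, n = 2 each). Of 14 other brakes on ERK, 1 was called (7.14%, against 14.8% of all tested genes). This was the RAS-dampening adaptor Dok2, at a log2 fold change of 0.25 (adjusted p = 0.0434, edgeR). It lost this call with each library left out, by DESeq2, by edgeR's exact test, with the replicate block and when libraries were scaled by size only. Under that last scaling the list held 0 higher calls and 1 lower.

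Early genes induced by MAPKs moved in both directions. Of 17 tested genes, 3 rose and 4 fell, and the median log2 fold change was -0.06. The called share was 41.2%, against 14.8% of all tested genes. Without vehicle replicate 2, 1 was called higher and 4 lower. Fos, a subunit of AP-1 that osteoclast formation requires, fell from 207.0 ± 4.33 to 136.8 ± 2.76 CPM (SD, n = 2 each), and Fosl2, a relative of Fos, fell by 0.57 on the log2 scale (adjusted p = 0.00115 and 0.00807, edgeR). Atf3, a stress-induced repressor, rose from 242.1 ± 4.6 to 366.3 ± 4.72 CPM (adjusted p = 8.20e-04, edgeR). Etv5, an ETS factor induced by ERK, rose by 0.40 on the log2 scale (adjusted p = 0.0131, edgeR). Its adjusted p was 0.0508 without vehicle replicate 2, and 42.8% of its transcript has a copy at 98.6% identity in Gm4798.

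Of 10 tested receptors and ligands upstream of ERK, 2 rose and 1 fell, with a median of 0.13. The called share was 30%, against 14.8% of all tested genes. Igf1, a growth factor, rose from 447.5 ± 10.9 to 669.8 ± 14.8 CPM, and Met, the receptor of hepatocyte growth factor, from 44.9 ± 1.70 to 63.4 ± 1.25 CPM (SD, n = 2 each). Tnfrsf11a, the gene of RANK itself, fell from 139.0 ± 1.33 to 109.1 ± 4.84 CPM. The adjusted p-values were 8.51e-04, 0.00611 and 0.00834 (edgeR).

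**Figure D4:**
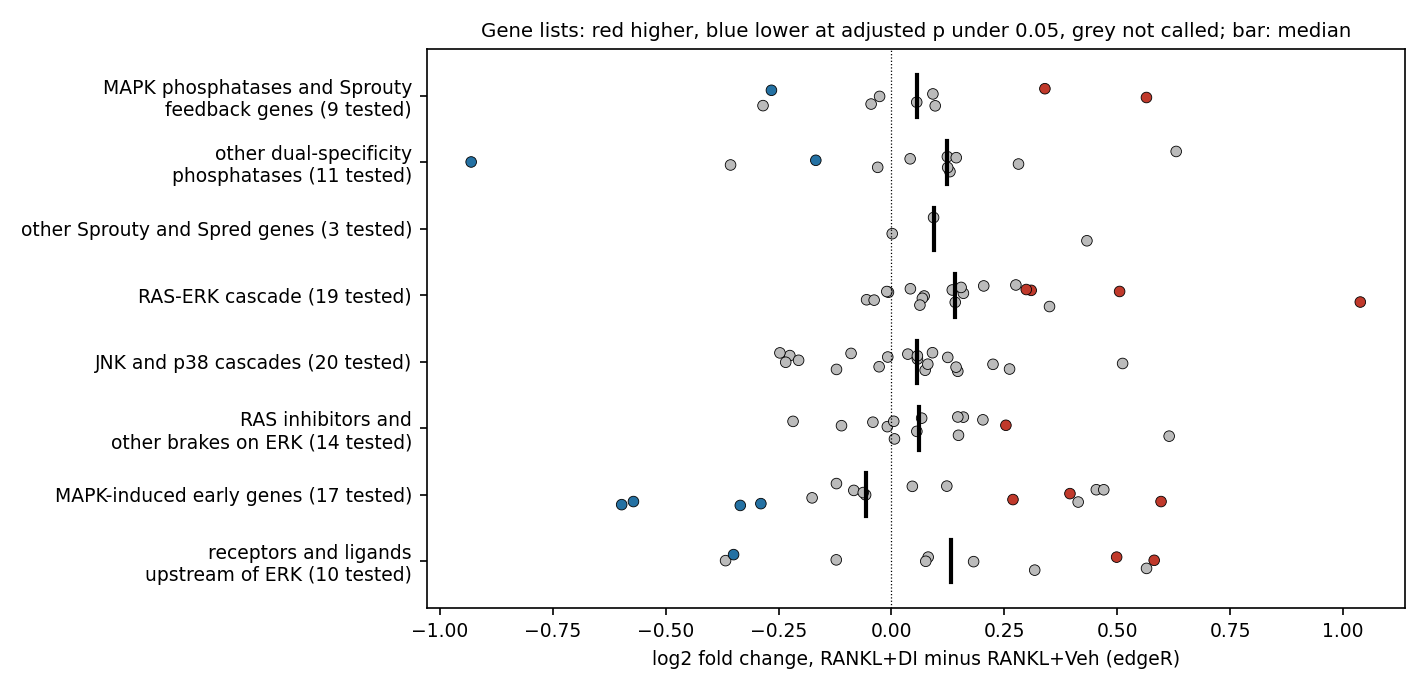
Log2 fold change of RANKL+DI against RANKL+Veh for the tested genes of each list, 1 point per gene. Red and blue points were higher and lower with DI at an adjusted p under 0.05 (edgeR), grey points did not pass, and black bars are medians. The called points of the RAS-ERK cascade all lie to the right of 0, with Rps6ka3 at 1.04, and Dusp9 lies furthest to the left at -0.93.

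Markers of osteoclast differentiation also differed between the groups. Of 8 osteoclast markers, 6 were tested and 5 were lower with DI, and the list summed to 168.6 to 181.5 CPM with DI against 297.1 to 311.2 CPM with vehicle, with Calcr at 0. Of 7 macrophage markers, 5 were higher and 1 lower, and they summed to 28384 to 29194 CPM with DI against 22173 to 23037 CPM. Lyz2 made up most of this sum, at 22772 and 23786 CPM with DI and 18289 and 17630 CPM with vehicle. Neutrophil markers summed to 9.23 to 11.1 CPM and stromal markers to 41.4 to 51.3 CPM over all libraries, and none of their tested genes was called, while 1 neutrophil marker had an unadjusted p under 0.05 (edgeR) and Ly6g was at 0. The 4 endothelial markers summed to 9.60 to 10.2 CPM with DI and 17.5 to 18.1 CPM with vehicle, nearly all of it Kdr, with Tek at 0. Of the 2 tested, 1 was called lower with DI by edgeR, at a log2 fold change of -0.92. Markers of B cells, T and NK cells, mast cells and erythroid cells had at most 8 counts in any library. Whether the shift away from osteoclast markers has a part in the levels of Dusp6, Dusp3 and Spred1 was not tested, and in bulk RNA fewer cells of a type and less RNA per cell cannot be told apart.

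The calls on the 10 genes did not change under any of the 12 alternative settings that were run, as the plot of settings shows. Dusp6, Dusp3 and Spred1 were called in all of them, and no other gene of the set in any. Without single libraries the log2 fold change ranged from 0.50 to 0.63 for Dusp6, from 0.27 to 0.41 for Dusp3 and from -0.28 to -0.25 for Spred1. Scaling by library size only moved the median of all tested genes to -0.10, and the 3 values to 0.46, 0.24 and -0.37. The calls were not equally firm, and Dusp3 came closest to the threshold. Among alternatives that kept all libraries, its highest adjusted p was 0.0383 (edgeR, library size only). That of Spred1 was 0.028 (edgeR's exact test) and that of Dusp6 0.0105 (edgeR, replicate block).

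**Figure D5:**
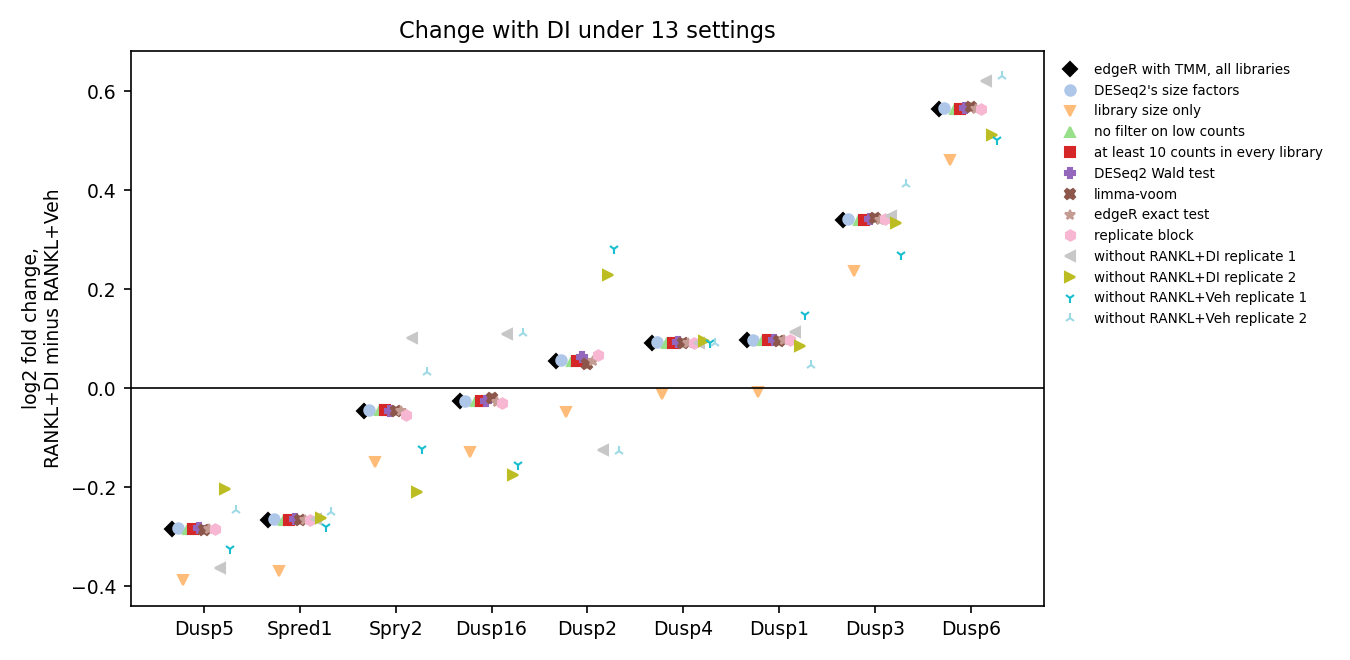
Log2 fold change of RANKL+DI against RANKL+Veh for the 9 tested genes under 13 settings, with black diamonds for edgeR with TMM on all libraries. Dusp6 and Dusp3 lie above 0 and Spred1 and Dusp5 below 0 under each setting, while Spry2, Dusp16, Dusp2, Dusp4 and Dusp1 have points on both sides.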

How the data were processed

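RNA of BMMs treated with RANKL and DI or vehicle was sequenced from both ends after mRNA library preparation, with 2 libraries per group, grouped by their titles. The deposited values are raw, unnormalized counts per gene and FPKM values, which the authors normalized to gene length and library total. A second table repeats these values with GO and KEGG terms and was not used. GRCm38 is named in the submitters' processing notes, while the aligner, the counting program and the annotation release are not given in the sources used here. Of 34344 deposited gene identifiers also in GENCODE M21, 80.8% had the same start and end.

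Counts were fitted in R 4.3.3 with edgeR 4.0.16 (TMM factors, default filter on low counts, quasi-likelihood test, condition as the only term), with Benjamini-Hochberg adjustment across all 12590 genes that passed the filter. Standard errors and 95% intervals of single genes, not adjusted for the number of genes, come from the F statistic. The common biological coefficient of variation was 0.0905. Totals of 16085692 to 19403480 counts per library set the precision, and limits from 3 counts cover counting error only. Libraries of 1 group differed beyond sampling noise (chi-square per degree of freedom 7.57 with DI and 7.74 with vehicle). Alternatives were DESeq2's size factors, library size only, no filter, the Wald test of DESeq2 1.42.0, at least 10 counts in every library, limma-voom (limma 3.58.1), edgeR's exact test, a replicate block, and each library left out. Exon overlaps were taken from GENCODE M21, copies from BLAST+ 2.17.0 (95% identity or more, covering 5% or more of a transcript), and promoters from RefSeq.

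The 10 genes and all lists were chosen with earlier results of these data known. Of each other list, up to 4 called genes with the largest absolute log2 fold change are named, or, where none was called, the 2 with the highest mean CPM. Other genes appear as markers at 0 or as libraries that disagree, and were named after their values were seen, as were Kdr and Lyz2. A gene that this rule names in the RAS-ERK cascade is not reported here.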

Additional observations from a re-analysis of the deposited data

How the results depend on the processing

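With each library left out, where the lone library of a group is assumed to vary like those of the other group, edgeR called 1087 to 1394 genes over the whole table in place of 1868, the fewest without vehicle replicate 2 and 1120 without vehicle replicate 1. The 10 genes kept 3 calls under all 12 alternatives, and the same 3 genes were called. The libraries of both groups share replicate numbers, but these were not taken as a pairing, since the deviations of same-numbered libraries from the group means correlated at -0.030 over genes. With the replicate block, 1389 genes were called over the whole table, the 10 genes kept their calls, and Dok2 and Dusp11 lost theirs (adjusted p = 0.0752 and 0.0833, edgeR), which left 0 calls among the other brakes on ERK and 1 higher and 1 lower among the other dual-specificity phosphatases. Scaling by library size only called 548 genes higher and 1932 lower, against 899 and 969 with TMM. The cause of a changed call was not tested.

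For the other dual-specificity phosphatases, DESeq2's Wald test called 1 gene and leaving out a library 0 to 2. For the JNK and p38 cascades, library size only and limma-voom called 1 gene each, and leaving out a library 0 to 1. For the other brakes on ERK, 2 genes were called without a filter, 0 by DESeq2, 0 by edgeR's exact test, and 0 to 1 with a library left out. Among the named genes, signs turned for 9 that were not called. With library size only, the log2 fold change was -0.0065 for Dusp1, -0.047 for Dusp2, -0.012 for Dusp4, -0.010 for Spred2, -0.10 for Spred3, and -0.046 for both Spag9 and Mapkapk2, and by DESeq2 that of Spred3 was -0.0020. Without single libraries it ranged from -0.13 to 0.28 for Dusp2, from -0.18 to 0.11 for Dusp16, from -0.21 to 0.10 for Spry2 and from -0.24 to 0.27 for Spred3. Counts were lowest for Dusp2, with at most 58 per library, and Spry1, with at most 4.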

Other observations

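Libraries of the same group disagreed strongly for some signaling genes with deep counts. Of 6039 genes with at least 500 counts on average, 170 (2.82%) differed by more than 1.5-fold between the libraries of a group, and 5 of the listed MAPK pathway genes were among them. Mapk14, which encodes a p38 kinase that Dusp1 and Dusp16 inactivate, had 3443 and 1559 counts in the DI libraries and 1542 and 3092 in the vehicle libraries, so that each group held a high and a low library. Grb2, the adaptor that links receptors to RAS, was counted 4556 and 5062 times with DI but 5129 and 2405 with vehicle, and 24.1% of its transcript has a copy at 98.0% identity in Gm12791. Egr2, an early gene, ranged from 497 to 1788 counts with DI and from 926 to 1211 with vehicle. Map3k7 stood at 66.1 and 76.5 CPM with DI and at 32.6 and 67.7 CPM with vehicle, so that the groups overlapped. Rasa3 held 1998 and 3367 counts in the DI libraries against 2998 and 1766. None of these 5 genes was called by edgeR (adjusted p of 0.331 or more), and all were named after their values were seen. Dusp1, Dusp3, Dusp4, Dusp6 and Spred1 also had at least 500 counts on average, and none of them was among the 170. Dusp2, Dusp5, Dusp16, Spry1 and Spry2 had fewer counts and could not be among the 170.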
